A study of Mus musculus with 16 samples.

Results

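The TNF superfamily is a set of cytokines (ligands) and the cell-surface proteins that bind them (receptors), and 44 of the 20508 coding genes in the deposited mouse annotation belong to it by the rule used here. Members were chosen by name alone. They were every symbol starting with Tnfsf or Tnfrsf, plus Tnf, Lta, Ltb, Ltbr, Cd40, Cd40lg, Cd70, Cd27, Fas, Fasl, Ngfr, Eda and Edar, with at least 1 coding segment. This gave 18 ligands and 26 receptors, and no listed gene was missing. The study sequenced polyadenylated RNA from 16 mouse spleens with 4 in each of 4 groups. Wild-type spleens formed separate groups for the codes NG66 and NG108, and the mutants were triple knockouts (Zfp36-/-, TNFR1-/-, TNFR2-/-) and double knockouts (TNFR1-/-, TNFR2-/-); no group was treated. Both knockout groups lacked the TNF receptor genes described below, and the labels give no age. The file used here holds gene models and no value of any spleen, so expression was not analysed here and everything below is measured on the annotation (build mm10), with genes as units.

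Ligands of this family are mostly membrane proteins whose C-terminal part, the TNF homology domain, assembles into trimers and can be shed by proteases. Receptors carry extracellular cysteine-rich domains that contact the ligand, and inside the cell they recruit adaptors of the TRAF family or, through a death domain, adaptors such as FADD and TRADD. In spleen these pairs steer germinal centres, B-cell survival, T-cell costimulation, the layout of lymphoid tissue and cell death. Zfp36 encodes tristetraprolin, which binds AU-rich elements in mRNA, that of Tnf among them, and promotes decay of the bound mRNA. Members descend from common ancestors and are not independent draws, so the comparisons below are given as counts, medians and ranges beside all coding genes, with no p-value.

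The ligands had few coding exons and a heavy last one, whereas most receptors were cut into more and smaller pieces. A coding exon is an exon with at least 1 coding base, and each gene is represented by its transcript with the most coding bases. Ligands had a median of 4 coding exons (lowest 3, highest 8) and receptors a median of 7 (lowest 3, highest 13). The median of all coding genes was also 7. At most 5 coding exons were found in 14 of 18 ligands and in 6 of 26 receptors, against 42.6% of all coding genes. No member was encoded in a single coding exon, a form that 15.1% of all coding genes had.

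**Figure D1:**
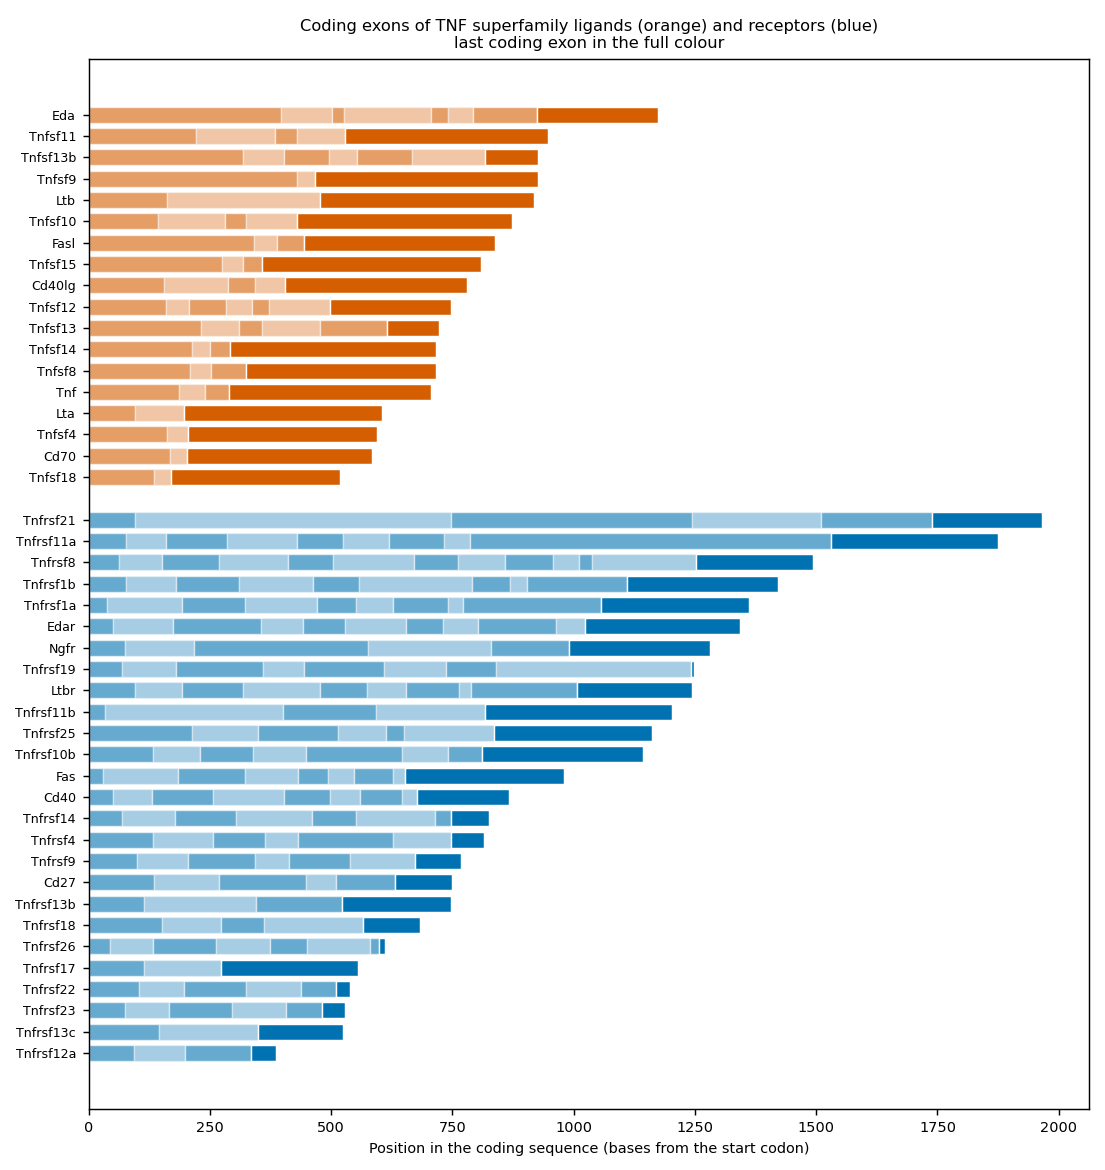
Coding exons of the 44 members drawn to scale along the coding sequence (x axis, bases from the start codon; 1 row per gene, longest first within each role), with ligands in orange and receptors in blue. Pale and darker blocks alternate between exons and the last coding exon has the full colour; 14 ligands end in a block of 350 to 461 bases, while receptors such as Tnfrsf8 with 13 coding exons are finely divided.

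Among the ligands, 6 genes had 3 coding exons: Lta and Ltb, which encode the lymphotoxins, Cd70, the ligand of CD27, Tnfsf4 (OX40 ligand), Tnfsf9 (4-1BB ligand) and Tnfsf18 (GITR ligand). Tnf itself, Fasl, Tnfsf8 (CD30 ligand), Tnfsf14 (LIGHT) and Tnfsf15 (TL1A) had 4. Cd40lg, Tnfsf10 (TRAIL) and Tnfsf11 (RANK ligand, the osteoclast differentiation factor) had 5. The remaining 4 ligands were Tnfsf13 (APRIL) with 6, Tnfsf12 (TWEAK) and Tnfsf13b (BAFF, a B-cell survival factor) with 7, and Eda with 8. Eda encodes ectodysplasin, which acts in the development of skin appendages.

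The receptors with the fewest coding exons were Tnfrsf13c (BAFF receptor) and Tnfrsf17 (BCMA), with 3 each, followed by Tnfrsf12a (the TWEAK receptor) and Tnfrsf13b (TACI) with 4. These are the receptors of the ligands TWEAK, BAFF and APRIL, which were themselves the most divided ligands beside Eda. Tnfrsf11b (osteoprotegerin, a soluble decoy for RANK ligand) and Tnfrsf18 (GITR) had 5. Cd27, Ngfr (the p75 neurotrophin receptor), Tnfrsf21 (DR6), Tnfrsf22 and Tnfrsf23 had 6, and Tnfrsf4 (OX40), Tnfrsf9 (4-1BB) and Tnfrsf25 (DR3) had 7. Tnfrsf10b (the mouse TRAIL receptor), Tnfrsf14 (HVEM) and Tnfrsf26 had 8, and Cd40, Fas and Tnfrsf19 (TROY) had 9. Edar, the receptor of ectodysplasin, had 11, and Tnfrsf8 (CD30) had the most, 13.

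The receptors deleted in the study, Tnfrsf1a (TNFR1) and Tnfrsf1b (TNFR2), had 10 coding exons each, as did Ltbr (lymphotoxin beta receptor) and Tnfrsf11a (RANK). Tnfrsf1a lay at chr6:125349723-125362483 on the plus strand and Tnfrsf1b at chr4:145212368-145246870 on the minus strand. Their first coding exon held 39 and 78 coding bases, and their last held 305 and 311. Their spans differed more, at 12761 bases for Tnfrsf1a and 34503 bases for Tnfrsf1b, and the longest intron accounted for 6762 and 17617 of these. Their ligands Tnf (chr17:35199391-35201996) and Lta (chr17:35203165-35205351) spanned 2606 and 2187 bases.

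Introns between coding exons fell mostly in phase 1 of the reading frame in both roles. A phase 0 intron lies between codons, phase 1 after the first base of a codon and phase 2 after the second. The ligands had 63 such introns, of which 42.9% were in phase 0, 57.1% in phase 1 and none in phase 2. The receptors had 164, with 19.5% in phase 0, 67.7% in phase 1 and 12.8% in phase 2. Over all coding genes with a complete reading frame the shares were 45.6%, 32.3% and 22.0%.

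The first coding intron was in phase 0 in 18 of 18 ligands and in 17 of 26 receptors, against 41.0% of all coding genes with such an intron. The receptors that began with phase 1 were Cd27, Tnfrsf4, Tnfrsf9, Tnfrsf12a, Tnfrsf13b, Tnfrsf13c, Tnfrsf17, Tnfrsf18 and Tnfrsf25. The last coding intron was in phase 1 in 16 of 18 ligands, all but Eda and Tnfsf12. It was also in phase 1 in 23 of 26 receptors, all but Cd40, Tnfrsf14 and Tnfrsf19. The share among all coding genes was 34.4%.

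Only 7 orders of phases occurred among the 18 ligands. Phases 0 and 1 were the order of the 6 ligands with 3 coding exons, and phases 0, 1 and 1 that of the 5 with 4. Cd40lg, Tnfsf10 and Tnfsf11 shared the order 0, 0, 1 and 1. Such short orders were not rare: 15.7% of the 1385 genes with 2 coding introns had the first, and 9.74% of the 1632 genes with 3 had the second.

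Longer orders were shared by few genes. Tnfrsf1a, Tnfrsf1b, Ltbr and Tnfrsf11a all had phases 0, 1, 1, 1, 2, 1, 1, 0 and 1, and these 4 were the only genes with that order among the 880 coding genes with 9 coding introns. Tnfrsf4 and Tnfrsf9 shared an order of 6 phases (1, 1, 1, 2, 1 and 1) that no other gene of the annotation had. The run 1, 1, 2 and 1 occurred in 16 of the 22 receptors with at least 4 coding introns and in 0 of the 7 ligands with as many, against 7.22% of all coding genes with as many. Cd27, Edar, Tnfrsf11b, Tnfrsf19, Tnfrsf21 and Tnfrsf25 were the receptors of that size without it. The run is part of the receptors' own orders, so its count is a description. No ligand intron was in phase 2, so no ligand could hold the run.

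Many ligands had a very small second coding exon. The second coding exon was shorter than 60 bases in 10 of 18 ligands and in 0 of 26 receptors, against 9.68% of coding genes with at least 3 coding exons. The other 8 ligands had longer ones, up to 316 bases in Ltb. In 9 of these 10 ligands that exon opened in phase 0 and closed in phase 1. Those of 8 genes are shown because the alike length and frame can be read directly from them, with the last base, which is the first base of the codon split by the next intron, as a capital.
Cd70 (chr17:57148767-57148800, minus strand): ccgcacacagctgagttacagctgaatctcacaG
Tnfsf18 (chr1:161500471-161500504, plus strand): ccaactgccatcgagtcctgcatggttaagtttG
Tnfsf9 (chr17:57106250-57106286, plus strand): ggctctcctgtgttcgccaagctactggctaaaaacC
Tnfsf15 (chr4:63734254-63734296, minus strand): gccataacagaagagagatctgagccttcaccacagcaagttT
Tnfsf4 (chr1:161414968-161415010, plus strand): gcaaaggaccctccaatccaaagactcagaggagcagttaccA
Tnfsf8 (chr4:63851120-63851162, minus strand): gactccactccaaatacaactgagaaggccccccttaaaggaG
Fasl (chr1:161787105-161787150, minus strand): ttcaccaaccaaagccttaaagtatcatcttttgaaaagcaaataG
Tnf (chr17:35201084-35201138, minus strand): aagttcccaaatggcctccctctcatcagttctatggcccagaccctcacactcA
The 9 exons were 34 to 55 bases long. The shortest, of Cd70 and Tnfsf18, held 11 whole codons and the 1 base of the split codon. Tnfsf12 was the exception among the 10, since its second coding exon of 48 bases closed in phase 0.

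The last coding exon carried a median of 50.2% of the coding bases in ligands (lowest 11.9%, highest 67.7%) and 18.8% in receptors (lowest 0.481%, highest 50.6%). The median of all coding genes was 15.8%. It held more than 50% of the coding bases in 9 of 18 ligands, namely Cd70, Lta, Tnf, Tnfsf4, Tnfsf8, Tnfsf10, Tnfsf14, Tnfsf15 and Tnfsf18, and in 1 of 26 receptors, Tnfrsf17. The background was 11.0% of genes with at least 2 coding exons. The highest value belonged to Lta, with 410 of 606 coding bases (67.7%), and Tnf had 416 of 705 (59.0%).

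**Figure D2:**
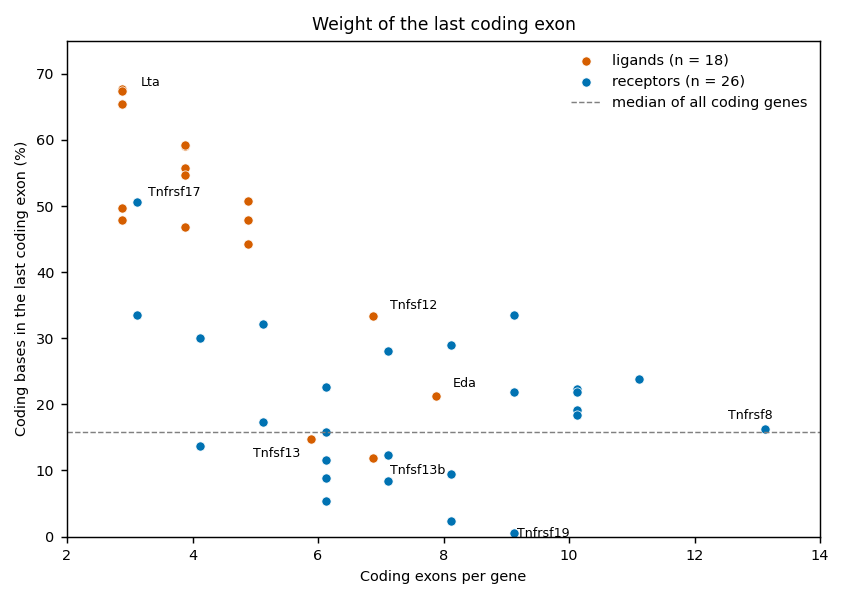
Share of the coding bases in the last coding exon (y axis, %) against the number of coding exons (x axis) for 18 ligands (orange) and 26 receptors (blue), drawn slightly left and right of the whole number so that points do not hide each other; the dashed line is the median of all coding genes (15.8%). Ligands with 3 to 5 coding exons lie above 40%, and Tnfsf12, Tnfsf13, Tnfsf13b and Eda lie below.

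In the 14 ligands with at most 5 coding exons the last coding exon was 350 (Tnfsf18) to 461 (Tnfsf9) bases long and followed a phase 1 intron. The other 4 ligands had last exons of 107 to 249 bases. When their last exons were added up until at least 350 bases were reached, Eda gave 380 bases in 2 exons, Tnfsf12 374 in 2, Tnfsf13 365 in 3 and Tnfsf13b 374 in 3. All 4 totals lay inside the range of the other ligands, but the adding stopped at its lower end, so no total could fall below it. In all 4 the block opened after a phase 1 intron. This measure was chosen after the exon lengths were seen, and its range comes from the other 14 ligands. A block in that range after a phase 1 intron was found in 8 of 26 receptors and in 19.1% of all coding genes with a coding intron.

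Receptor genes had a recurrent unit of their own. The most frequent lengths of an internal coding exon flanked by phase 1 introns were 126 and 129 bases, with 6 exons each, in 11 of 26 receptors and 0 of 18 ligands. Of all coding genes with an internal coding exon, 4.27% had such an exon. Since the lengths were taken from the receptors themselves, their count is a description. In Cd40, Ltbr, Tnfrsf1a, Tnfrsf1b, Tnfrsf11a, Tnfrsf14, Tnfrsf22, Tnfrsf23 and Tnfrsf26 it was the third coding exon. These 9 exons are printed below with in-frame cysteine codons in capitals, because the spacing of the cysteines is what the receptors share.
Cd40 (chr2:165062661-165062786, plus strand): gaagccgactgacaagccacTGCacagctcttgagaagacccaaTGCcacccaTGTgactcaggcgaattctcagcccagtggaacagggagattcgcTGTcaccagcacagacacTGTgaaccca
Ltbr (chr6:125312994-125313119, minus strand): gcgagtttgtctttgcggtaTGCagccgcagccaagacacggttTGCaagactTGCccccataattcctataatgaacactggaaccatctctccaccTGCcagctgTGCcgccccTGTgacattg
Tnfrsf11a (chr1:105809330-105809455, plus strand): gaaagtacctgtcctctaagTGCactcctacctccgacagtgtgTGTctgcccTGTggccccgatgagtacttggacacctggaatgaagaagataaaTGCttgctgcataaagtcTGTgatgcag
Tnfrsf14 (chr4:154926599-154926724, minus strand): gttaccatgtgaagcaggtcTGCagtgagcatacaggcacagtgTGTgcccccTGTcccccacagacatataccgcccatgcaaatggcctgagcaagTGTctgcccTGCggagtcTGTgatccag
Tnfrsf1a (chr6:125357313-125357441, plus strand): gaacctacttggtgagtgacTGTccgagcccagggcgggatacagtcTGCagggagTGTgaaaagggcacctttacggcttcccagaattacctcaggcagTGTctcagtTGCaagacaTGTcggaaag
Tnfrsf1b (chr4:145227468-145227596, minus strand): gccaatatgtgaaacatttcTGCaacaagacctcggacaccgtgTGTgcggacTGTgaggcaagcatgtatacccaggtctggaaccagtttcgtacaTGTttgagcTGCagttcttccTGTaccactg
Tnfrsf22 (chr7:143643276-143643404, minus strand): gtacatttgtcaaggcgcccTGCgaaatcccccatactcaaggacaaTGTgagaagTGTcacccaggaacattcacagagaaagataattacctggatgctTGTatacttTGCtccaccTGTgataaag
Tnfrsf23 (chr7:143679945-143680073, minus strand): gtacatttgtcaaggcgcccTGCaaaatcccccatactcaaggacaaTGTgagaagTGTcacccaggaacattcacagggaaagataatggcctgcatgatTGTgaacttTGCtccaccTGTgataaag
Tnfrsf26 (chr7:143618310-143618438, minus strand): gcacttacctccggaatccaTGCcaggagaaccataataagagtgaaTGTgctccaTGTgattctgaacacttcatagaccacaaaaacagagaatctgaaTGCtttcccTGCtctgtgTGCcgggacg
Each of the 9 held 5 or 6 cysteine codons. In the 4 exons of 126 bases (Cd40, Ltbr, Tnfrsf11a and Tnfrsf14) a cysteine codon began at bases 21, 45, 54, 99 and 117 of the exon in every gene, and Ltbr and Tnfrsf14 had another at base 108. In 4 exons of 129 bases (Tnfrsf1a, Tnfrsf22, Tnfrsf23 and Tnfrsf26) they began at bases 21, 48, 57, 102, 111 and 120. Tnfrsf1b, also of 129 bases, had them at 21, 45, 54, 99, 108 and 120. Its first 5 positions were therefore those of Ltbr and Tnfrsf14, while it shared only bases 21 and 120 with Tnfrsf1a.

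Exons with cysteine codons at the same positions were laid side by side without gaps. The 4 exons of 126 bases had the same base at 34.9% to 47.6% of positions in pairs. Among Tnfrsf1a, Tnfrsf22, Tnfrsf23 and Tnfrsf26 the share was 37.2% to 46.5% in 5 of the 6 pairs. The other pair was Tnfrsf22 and Tnfrsf23, neighbours on chromosome 7 that encode decoy receptors for TRAIL, with 121 of 129 positions (93.8%). Most cysteine codons of Tnfrsf1b lay 3 bases away from those of these 4 genes. Laid beside them in the same way, its exon had the same base at 25.6% to 29.5% of positions. That alignment was out of step by 3 bases where those codons lay, so these shares do not measure how alike the exons are.

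Length alone did not mark the unit. In Edar and Tnfrsf19 an exon of 126 bases was the sixth coding exon, and Tnfrsf26 had a further one of 129 bases as its sixth. The exon of Edar held 0 cysteine codons and is printed for contrast.
Edar (chr10:58610447-58610572, minus strand): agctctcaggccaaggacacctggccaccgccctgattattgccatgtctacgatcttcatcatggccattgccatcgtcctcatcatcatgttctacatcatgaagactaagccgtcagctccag
The sixth exons of Tnfrsf19 and Tnfrsf26 had 4 cysteine codons each.

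Over whole coding sequences, cysteine codons were more frequent in receptors. They made up a median of 6.88% of codons in receptors (lowest 2.29%, highest 12.3%) and 1.87% in ligands (lowest 0.495%, highest 4.62%), with 2.12% over 20288 coding genes. More than 5% was reached by 21 of 26 receptors and 0 of 18 ligands, against 7.47% of all coding genes. The receptors below 5% were Tnfrsf13c with 4 cysteine codons (2.29%), Tnfrsf21 with 24 (3.66%), Tnfrsf10b with 18 (4.72%), Tnfrsf17 with 9 (4.86%) and Edar with 22 (4.91%). The ranges of the roles overlapped at these low receptors. Tnfrsf13c lay below 6 ligands, namely Cd70 (4.62%), Tnfsf4 (3.03%), Tnfsf8 (2.93%), Tnfsf13b (2.91%), Tnfsf18 (2.89%) and Tnfsf15 (2.59%), and Tnfrsf21 lay below Cd70.

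**Figure D3:**
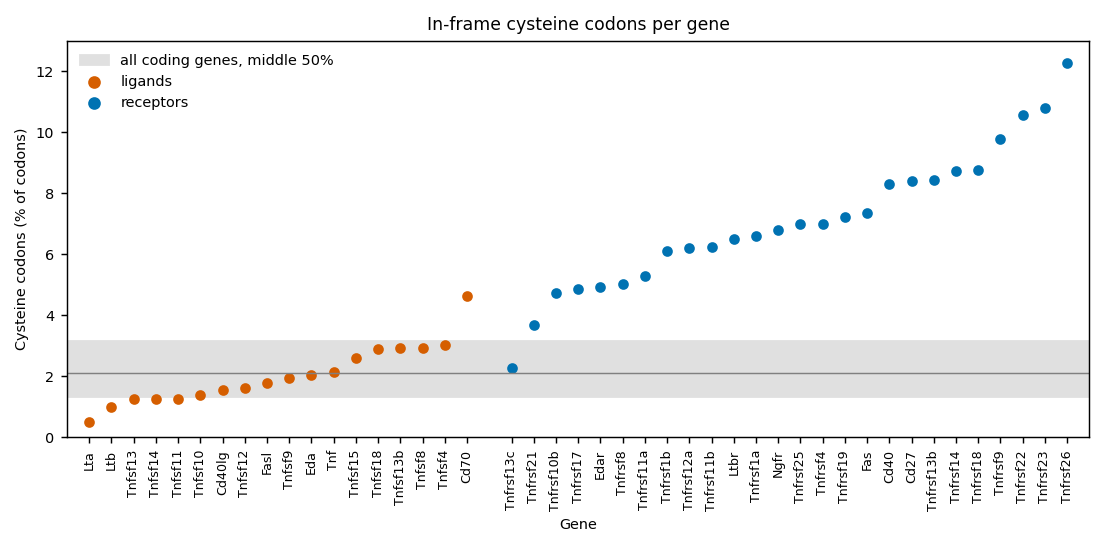
In-frame cysteine codons as a percentage of all codons (y axis) for each of the 44 members (x axis), ordered within ligands (orange) and receptors (blue); the grey band is the middle 50% of all coding genes and the grey line their median of 2.12%. Only Cd70 among the ligands lies above the band, and only Tnfrsf13c among the receptors lies inside it.

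The highest shares were those of Tnfrsf26 (12.3%), Tnfrsf23 (10.8%), Tnfrsf22 (10.6%) and Tnfrsf9 (9.77%). The receptors deleted in the study had 30 cysteine codons (Tnfrsf1a, 6.61%) and 29 (Tnfrsf1b, 6.12%), while Tnf had 5 and Lta 1. Within the receptor genes the codons were uneven. Of 581 cysteine codons, 429 (73.8%) lay before the midpoint of the coding sequence, against 60.2% of 93 in ligands and 49.4% over all coding genes. Tnfrsf22 (8 of 19), Tnfrsf23 (7 of 19) and Tnfrsf26 (12 of 25) had fewer of theirs before the midpoint than after it. In Tnfrsf1a the second to the fifth coding exons held 4, 6, 7 and 4 of them, and in Tnfrsf1b 4, 6, 7 and 3. In Ngfr a single exon of 360 bases held 17, and in Tnfrsf21 one of 652 bases held 18.

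Coding length differed less than exon number. Ligands had a median of 763.5 coding bases (lowest 519 in Tnfsf18, highest 1173 in Eda), and receptors 924 (lowest 387 in Tnfrsf12a, highest 1965 in Tnfrsf21). All coding genes had a median of 1215. The ranges of the roles overlapped over most of their width. The difference of 160.5 bases between the medians shrank to 87 bases with the shortest coding transcript of each gene.

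Gene span, from the first to the last exonic base over all coding transcripts, did not separate the roles. The median was 10246.5 bases in ligands and 16479.5 in receptors, beside 16439.5 over all coding genes. The order of the medians turned when members with a close neighbour of the family were left out (25978 bases in ligands, 17909 in receptors). Under 10 kb lay 9 of 18 ligands and 10 of 26 receptors, against 37.1% of all coding genes. The shortest were Ltb (1799 bases), Tnfrsf12a (2005) and Lta (2187). Eda (chrX:99975606-100400760) spanned 425155 bases, of which a single intron took 333817, and the next longest members were Tnfrsf19 (83022), Edar (74909), Tnfrsf21 (72634) and Tnfrsf11a (67259). Exons covered 62.1% of the span in Tnf and 1.17% in Eda.

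More than 1 coding structure was annotated in 3 of 18 ligands (Eda, Fasl and Tnfsf13) and 6 of 26 receptors (Cd27, Cd40, Fas, Tnfrsf9, Tnfrsf12a and Tnfrsf18), against 13.6% of all coding genes. Eda had 9 transcripts with 8 coding structures and Cd40 had 4 with 4. Tnfrsf1a, Tnfrsf1b, Tnf and Lta had 1 each. Tnfrsf19 had 2 transcripts that differed only outside the coding part. The count depended on the annotation: in the later GENCODE M21 set, 8 ligands and 15 receptors had more than 1 coding structure, with 2 for Tnf and 3 for Tnfrsf1a, against 57.3% of the genes there that share a symbol with a deposited coding gene.

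Several of these isoforms left out whole coding exons, and the shorter transcript of Fas had 189 coding bases against 981. The shorter form of Cd27 skipped the second and the third coding exons (312 bases with 12 cysteine codons), and that of Tnfrsf12a skipped its second (105 bases with 6). One form of Cd40 lacked the seventh (87 bases), one of Tnfrsf9 the sixth (135 bases), and 2 of Eda the third (24 bases). All of these pieces were flanked by phase 1 introns on both sides, so the reading frame continued after them. The skipped exons in the other forms had unlike phases at their ends: 46 bases in Fasl (phases 0 and 1), 203 in Tnfrsf18 (2 and 1) and 62 in another form of Cd40 (2 and 1). Exons in phase 1 at both ends made up 42.0% of the 138 internal coding exons of receptors and 33.3% of the 45 of ligands, against 12.4% over all coding genes.

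Some isoforms kept every coding exon and were shorter within them. Those of Eda that did so were shorter by 2, 3, 5 or 14 codons. The forms of Eda shorter by 40 codons instead ended in a different last coding exon, with 135 coding bases in place of 249. The smallest losses were 2 codons in Eda and 1 codon in Tnfsf13. In Eda one form lacked 6 coding bases at chrX:100395144-100395149, and in Tnfsf13 one lacked 3 at chr11:69684334-69684336. They are shown with the bases that are left out in capitals, in the order of the joined coding sequence, so each line crosses an intron within the coordinates given.
Eda (chrX:100395129-100396919, plus strand): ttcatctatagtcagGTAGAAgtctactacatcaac
Tnfsf13 (chr11:69684319-69684499, minus strand): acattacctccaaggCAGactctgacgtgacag
The Eda pair corresponds to a change known to decide which receptor ectodysplasin binds, Edar or the X-linked receptor Eda2r. In both genes the omitted bases lay beside an exon junction. In Eda they were the last bases of an exon, and in Tnfsf13 the first.

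Members that lay close together were of the same role. Of the 44 genes, 22 had another member within 100 kb, measured as the gap between gene spans: 12 of 18 ligands and 10 of 26 receptors. With gaps of at most 50 kb these were 8 ligands and 9 receptors. Any other coding gene lay within 100 kb for 94.5% of all coding genes, and for 17 ligands and 24 receptors. That share counts neighbours of any kind, so it is not a background for having another member nearby. The 22 members formed 9 groups, 5 of ligands and 4 of receptors. All 16 pairs within 100 kb were of the same role, and a ligand and a receptor were never within 1000 kb of each other.

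**Figure D4:**
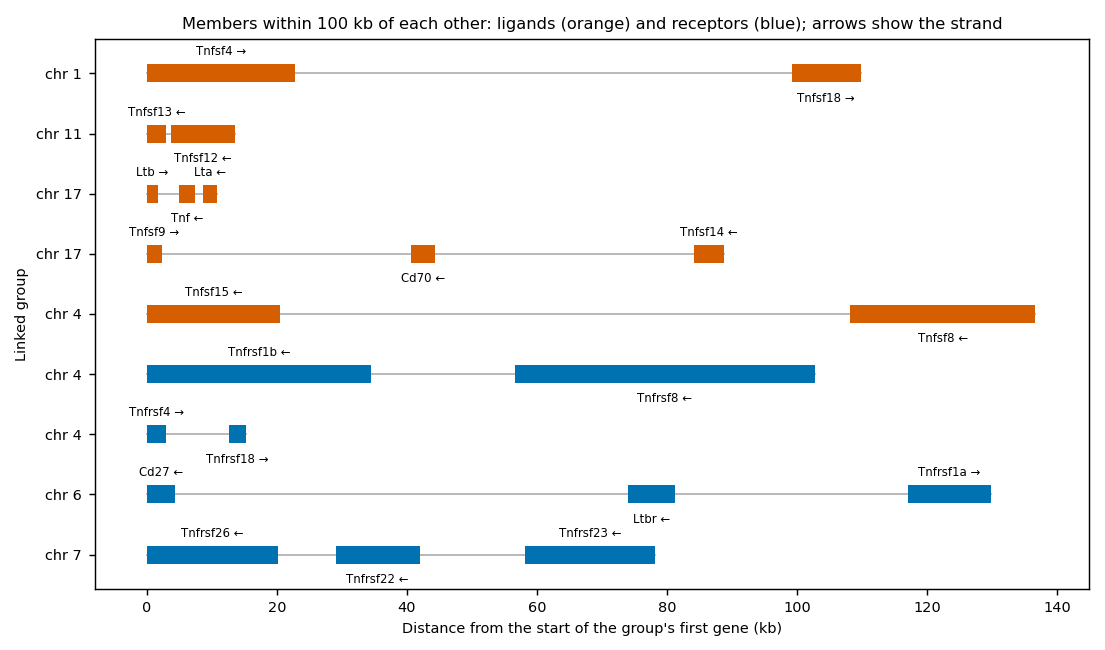
The 9 groups of members within 100 kb of each other, 1 per row with its chromosome, drawn to scale from the start of each group's first gene (x axis, kb); bars are gene spans, ligands orange and receptors blue, and arrows give the strand (right for plus). Each row has a single colour, and the tightest row is Ltb, Tnf and Lta at 10.8 kb.

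The ligand group of chromosome 17 with the shortest span held Ltb (35194507-35196305, plus strand), Tnf and Lta (both minus strand), 3085 and 1168 bases apart. Lta was upstream of Tnf on their shared strand. A second group on chromosome 17 held Tnfsf9 (57105385-57107757, plus strand), Cd70 (57145997-57149777, minus) and Tnfsf14 (57189492-57194186, minus), with gaps of 38.2 and 39.7 kb. On chromosome 11, Tnfsf13 and Tnfsf12 were 685 bases apart on the minus strand. Tnfsf4 and Tnfsf18 lay 76.5 kb apart on chromosome 1, with Fasl a further 275 kb from Tnfsf18, and Tnfsf15 and Tnfsf8 lay 87.7 kb apart on chromosome 4.

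The genes of both deleted receptors belonged to receptor groups. Tnfrsf1b lay 22.1 kb from Tnfrsf8, which was upstream of it on the minus strand of chromosome 4. Tnfrsf1a lay on chromosome 6 with Ltbr (125306571-125313870) at 35.9 kb on the opposite strand and Cd27 (125232622-125237027) 69.5 kb beyond, with Scnn1a and Tuba3a as the coding genes between them. Tnfrsf4 and Tnfrsf18 were 9.75 kb apart on chromosome 4 (156013695-156016589 and 156026342-156028891). Tnfrsf26, Tnfrsf22 and Tnfrsf23 lay in a row on the minus strand of chromosome 7, with gaps of 8.88 and 16.2 kb. In 11 of the 13 neighbouring pairs no coding gene lay wholly within the gap between the members, and 10 of the 13 were on the same strand. The gap between Tnfsf13 and Tnfsf12 lay inside the span of a further coding gene, BC096441, described below.

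Some pairs of close neighbours, fewer than those that did not, shared their order of intron phases. This held for 4 of 9 ligand pairs within 100 kb (Cd70 with Tnfsf9, Lta with Ltb, Tnfsf8 with Tnfsf15, Tnfsf4 with Tnfsf18), against 16.7% of the 144 other ligand pairs. It held for 2 of 7 receptor pairs (Ltbr with Tnfrsf1a, Tnfrsf22 with Tnfrsf23), against 3.14% of the 318 other receptor pairs. Pairs share members and are not independent.

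The members occupied 15 chromosomes. Chromosome 4 held 9 (2 ligands and 7 receptors, 20.5% of members against 6.14% of coding genes) and chromosome 17 held 8 (6 ligands and 2 receptors, 18.2% against 4.96%). Together they carried Tnfrsf9, Tnfrsf14, Tnfrsf25, Tnfrsf12a and Tnfrsf21 beside the groups above. Edar, Tnfrsf17, Fas, Cd40, Tnfsf10 and Tnfsf13b were each the only member on their chromosome. Cd40lg and Eda lay 42.8 Mb apart on the X chromosome.

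The study concerned tristetraprolin, so the 3' UTRs were searched on the mRNA strand for the heptamer TATTTAT, the core of its binding site; overlapping copies were counted separately. Of the members, 37 had a 3' UTR whose bases could be read in full, 16 ligands and 21 receptors. The longest such 3' UTR of each gene was searched. In Cd40, Eda, Fasl and Tnfrsf18 it was longer than that of the transcript with the most coding bases. It belonged there to a transcript with fewer coding bases, and part of it was coding sequence in the other transcript. In each of these genes both 3' UTRs held the same number of copies. At least 1 copy was present in 11 of 16 ligands (68.8%) and 8 of 21 receptors (38.1%), against 22.4% of all 15764 genes searched. The longer TTATTTATT was present in 2 of 16 ligands (12.5%) and 2 of 21 receptors (9.52%), against 5.50% of the same genes, so the roles differed by 30.7 percentage points with the heptamer and by 2.98 with the longer motif. Longer 3' UTRs held the heptamer more often, from 1.25% of genes near the 78 bases of Cd70 to 59.1% near the 3998 bases of Tnfsf10. Among genes within 1.2 times the length of each member, the share averaged 23.7% for the ligands and 21.7% for the receptors.

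**Figure D5:**
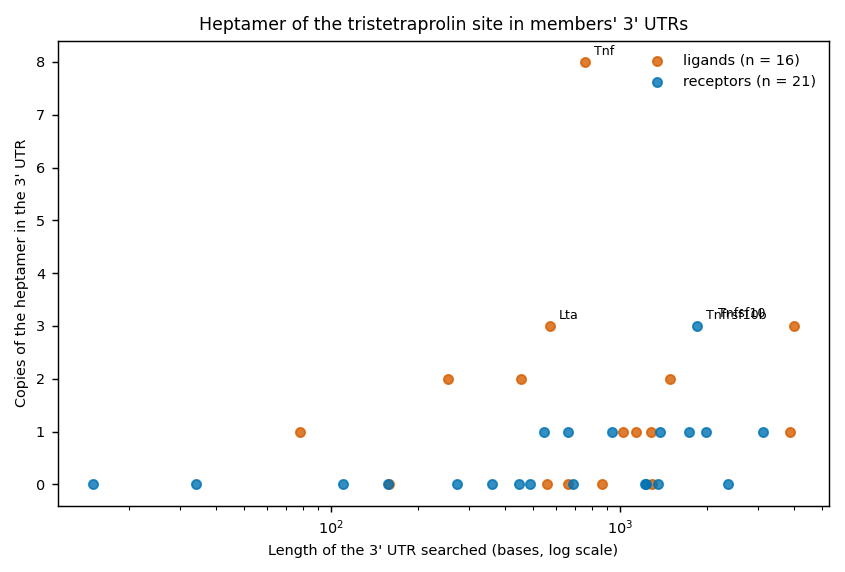
Copies of the heptamer (y axis) against the length of the 3' UTR searched (x axis, bases, log scale) for 16 ligands (orange) and 21 receptors (blue). Tnf stands alone with 8 copies in 754 bases, and the other genes have 3 or fewer.

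Tnf had 8 copies in 754 bases, the highest number of the 37 members searched, and 19.8% of genes of like length had any copy. Lta (572 bases) and Tnfsf10 (3998) had 3, and Tnfsf9, Tnfsf18 and Cd40lg had 2. Cd70, Eda, Fasl, Tnfsf11 and Tnfsf14 had 1, and Ltb, Tnfsf4, Tnfsf8, Tnfsf13 and Tnfsf13b had 0. Cd70 carried its copy in a 3' UTR of only 78 bases.

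Among the receptors Tnfrsf10b had 3 copies in 1845 bases, and Cd40, Ltbr, Ngfr, Tnfrsf11a, Tnfrsf11b, Tnfrsf12a and Tnfrsf22 had 1. Tnfrsf1a had 0 in 489 bases. Cd27, Fas, Tnfrsf4, Tnfrsf8, Tnfrsf9, Tnfrsf13c, Tnfrsf14, Tnfrsf17, Tnfrsf18, Tnfrsf21, Tnfrsf25 and Tnfrsf26 also had 0, some of them in very short 3' UTRs such as 15 bases in Tnfrsf8 and 34 in Tnfrsf14. Stretches of 30 bases are shown for 6 members that range from dense to single copies, with the heptamer in capitals.
Tnf (chr17:35199677-35199706, minus strand): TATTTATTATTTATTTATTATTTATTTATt
Lta (chr17:35203395-35203424, minus strand): aaaagttaagtTATTTATTTATagagaata
Tnfsf10 (chr3:27339343-27339372, plus strand): attgttttaccTATTTATcaTATTTATcac
Cd70 (chr17:57146005-57146034, minus strand): caagttctacgTATTTATaaatgtatatag
Tnfrsf10b (chr14:69782689-69782718, plus strand): tattattgtatTATTTATattattactgtt
Tnfrsf12a (chr17:23675492-23675521, minus strand): aaggggggtgaTATTTATtgtggggataat
In Tnf 5 of the 8 copies lay within this stretch, some of them overlapping. In Lta 2 of 3 did, and in Tnfsf10 2 of 3. A match is a description of the letters and not evidence of binding.

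Not every 3' UTR could be read. Those of Tnfrsf1b, Tnfrsf19, Tnfrsf23, Edar, Tnfsf12 and Tnfsf15 had bases without reference sequence, and 0 copies were found in the parts that could be read (68.0% of 3419 bases in Tnfrsf1b and 50.2% of 4986 in Tnfsf15, at least 98.3% in the other 4). Tnfrsf13b had no annotated 3' UTR.

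Genes listed for the signalling of this family had more coding exons at the median. A list of 32 adaptors, kinases, proteases and NF-kB factors, all found in the annotation, had a median of 10 coding exons and 1658.5 coding bases. The fewest coding exons were those of Fadd, the death domain adaptor, with 2, and the most those of Nfkb1, the p105 and p50 subunit of NF-kB, with 23. Their last coding exon held a median of 10.4% of the coding bases.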

How the data were processed

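The series measured polyadenylated RNA from 16 mouse spleen samples in 4 groups of 4. TopHat2 2.0.4 is the aligner and mm10 the build that the submitters' processing notes name. The deposited file is a gene annotation of 595686 lines with no score, count or other value of a sample. Its columns hold feature positions (1-based, mm10) and coding frames, per the file itself, and the source of the gene models is not given in the sources used here. Depth per sample is unknown, and genotype comparisons with edgeR or limma were not run.

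Members and lists were chosen with earlier results of these data known, and thresholds (such as 5 coding exons, 60 bases or 5% cysteine codons) after seeing values. Each gene was represented by its transcript with the most coding bases, stop codon not counted. Coding segments less than 10 bases apart were joined. Intron phases and 3' UTRs were taken from complete reading frames. Every member was named. Full values went to the lowest and highest of each measure, linked members, and the genes of TNF, lymphotoxin alpha and both TNF receptors.

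Bases were read from GENCODE M21 transcripts (GRCm38, the assembly of mm10) at the deposited coordinates. Overlapping transcripts disagreed at 0 bases, and 26110 of 26114 stop codons read as a stop. The planned protein measures were replaced by cysteine codons (TGT or TGC in frame), because no protein table was used here. The functions were tested on 200 simulated gene models and returned all 6 measures as built. Among the 9 short second coding exons of ligands that close in phase 1, the sequence of 1 is not reported here. Alternatives were other transcripts, exon definitions, member sets, distances and motifs. Computations ran in Python 3.11.15 with pandas 2.3.3 and numpy 2.4.6, and plots in matplotlib 3.10.9.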

Additional observations from a re-analysis of the deposited data

How the results depend on the processing

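No paired analysis was possible because the annotation holds gene positions and nothing measured in a spleen; for the same reason no replicate was left out. The differences in coding exons, last-exon share, intron phase and cysteine codons kept their direction and stayed within 1.5 times in each alternative tried. The total of 22 members with another within 100 kb stayed within 1.5 times as well. With gaps of at most 50 kb its split by role narrowed to 8 of 18 ligands and 9 of 26 receptors, in place of 12 and 10. The share of ligands was still the larger. The split was 12 and 10 with gaps of at most 250 kb and 13 and 10 with 1000 kb. The difference in median coding length (receptors minus ligands, 160.5 bases) was 87 bases with the shortest coding transcript and 73.5 bases with only genes named Tnfsf or Tnfrsf. The difference in median gene span turned to -8069 bases without members that have another within 100 kb and to -5584 bases with only genes named Tnfsf or Tnfrsf; fewer members entered both, and the cause was not tested. The 9 members with more than 1 coding structure became 23 in GENCODE M21, an alternative added after seeing the data. The difference of 30.7 percentage points in 3' UTRs with the heptamer (ligands minus receptors) fell to 2.98 points with the longer TTATTTATT, which 2 of 16 ligands, 2 of 21 receptors and 5.50% of all genes searched held; the cause was not tested. The wider hydropathy window was not run. With 18 ligands and 26 receptors, 1 gene moves a share by several points.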

Other observations

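The annotation holds a further gene, BC096441, that falls outside the naming rule although it joins Tnfsf12 and Tnfsf13. It lay at chr11:69682577-69696098 on the minus strand, with 13 coding exons and 1230 coding bases, and shared 977 exonic bases with Tnfsf12 and 1255 with Tnfsf13 on the same strand. Counting it as a ligand left the ligand median at 4 coding exons. Reads from these exons cannot be assigned to a single gene by position.

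On the opposite strand, Tnfrsf12a shared 80 exonic bases with Hcfc1r1. No other member shared exonic bases with an annotated gene on either strand.

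The coding structure chosen for each member was found unchanged in GENCODE M21 for 26 of 26 receptors and 17 of 18 ligands. The exception was Tnfsf13, for which the structure shorter by 1 codon was the one found there.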
